A study of Mus musculus with 9 samples.

Results

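The type I interferon response genes described here are 40 listed genes that cells switch on when interferon alpha or beta reaches them. They were found by gene symbol in a table of 20368 genes. A row was present for 37 of the 40. Mx1, Mx2 and Ifi47 were not analysed here. The cells were splenocytes of C57BL/6 mice aged 4 weeks, sorted by flow cytometry for CD71 (the transferrin receptor) and Ter119 (an erythroid surface antigen). The submitters call this gate erythroblast population II. There were 3 libraries of wildtype mice, 3 of mice heterozygous for Dhh, which encodes the secreted signal Desert hedgehog, and 3 of Dhh knockout mice. The labels do not state which part of Dhh is deleted, nor whether each library came from a separate mouse, so every p-value below measures the spread between these libraries, which may be technical.

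Type I interferons bind a receptor of 2 chains, Ifnar1 and Ifnar2, whose kinases Jak1 and Tyk2 phosphorylate Stat2. With Irf9, Stat2 is part of a transcription factor that binds the interferon-stimulated response element in front of the response genes. The response genes sense viral RNA, block its translation, modify proteins with the ubiquitin-like Isg15 or feed back on the pathway. Many are also transcribed at a low level without infection, and leukocytes of the spleen express them as well.

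The libraries held 7052111 to 14231427 reads counted to genes, recovered from the deposited values. Of these, 5 held 13052813 or more (wildtype 3, heterozygous 1 and 3, knockout 1 and 3) and 4 held 9657192 or fewer (wildtype 1 and 2, heterozygous 2, knockout 2). The erythroid label was borne out by Gata1 and Klf1, transcription factors of red cell precursors, at 171 to 254 and 309 to 410 FPKM (fragments per kilobase of gene, scaled for depth), and by Tfrc, the gene of CD71, at 351 to 596 FPKM. Dhh itself stood at 0.0267 FPKM in heterozygous 1 and was listed at 0 elsewhere, so it does not check the genotype labels. Leukocyte genes were detected in every library, though some markers of B, T, NK and dendritic cells were listed at 0 in at least 1. Summed markers of B, T and NK cells, of monocytes and macrophages, and of dendritic cells were lowest in wildtype 3. Those of neutrophils were lowest in heterozygous 1, at 281 FPKM against 338 FPKM in wildtype 3. Cd74, the invariant chain of antigen-presenting cells, was at 49.6 FPKM in wildtype 3 and at 182 to 751 FPKM elsewhere. The macrophage complement gene C1qa stood at 12.2 FPKM in wildtype 3 against 51.1 to 198 FPKM.

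Promoters are shown for 7 of the genes whose printed bases hold letters matching the core of the interferon-stimulated response element. Oas1a, Trim30a and Gbp3 also had a match there and are not shown. The 160 bases before the start of each gene are from RefSeq on GRCm38.p6, written 5′ to 3′ along the gene's own strand. Capitals mark the letters GAAANNGAAA, the core of the interferon-stimulated response element, or TTTCNNTTTC, the same core on the other strand, and neighbouring matches may overlap. The first 5 genes held at least 10 FPKM in every library, and Gbp2 and Ifit3 lay lower. Rsad2, Isg15, Bst2, Gbp2 and Ifit3 are among the genes called on leukocyte markers below.
Rsad2 (chr12:26456453-26456612, minus strand): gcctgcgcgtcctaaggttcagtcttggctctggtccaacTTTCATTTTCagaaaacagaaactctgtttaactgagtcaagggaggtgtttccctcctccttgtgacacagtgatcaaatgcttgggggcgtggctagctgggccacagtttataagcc
Isg15 (chr4:156200819-156200978, minus strand): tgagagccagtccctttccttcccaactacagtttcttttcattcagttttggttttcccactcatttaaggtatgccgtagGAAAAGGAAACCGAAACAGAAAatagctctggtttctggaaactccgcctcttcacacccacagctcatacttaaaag
Oas3 (chr5:120777660-120777819, minus strand): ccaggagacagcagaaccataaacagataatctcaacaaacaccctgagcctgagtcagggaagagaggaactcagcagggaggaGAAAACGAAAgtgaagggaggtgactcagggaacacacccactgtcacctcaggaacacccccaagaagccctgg
Ifit1 (chr19:34640729-34640888, plus strand): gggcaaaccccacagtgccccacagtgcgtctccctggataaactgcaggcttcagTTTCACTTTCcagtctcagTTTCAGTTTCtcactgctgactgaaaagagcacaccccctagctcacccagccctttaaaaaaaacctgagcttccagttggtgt
Bst2 (chr8:71537473-71537632, minus strand): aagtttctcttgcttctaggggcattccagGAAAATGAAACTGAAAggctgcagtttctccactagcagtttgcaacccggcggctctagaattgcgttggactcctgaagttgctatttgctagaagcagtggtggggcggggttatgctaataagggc
Gbp2 (chr3:142620503-142620662, plus strand): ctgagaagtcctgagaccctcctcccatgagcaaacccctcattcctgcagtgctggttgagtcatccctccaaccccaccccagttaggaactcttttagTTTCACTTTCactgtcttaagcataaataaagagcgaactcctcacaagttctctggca
Ifit3 (chr19:34583369-34583528, plus strand): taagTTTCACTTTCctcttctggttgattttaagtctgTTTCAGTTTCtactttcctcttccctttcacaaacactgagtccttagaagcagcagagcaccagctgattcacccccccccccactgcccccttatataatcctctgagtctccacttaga

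The core was found on either strand in the 300 bases from 250 before to 50 after the start in 15 of the 29 response genes with a RefSeq promoter, or 51.7%, against 3.99% of the 27025 genes in the promoter table. It was present in 10 of 21 genes abundant in every library and in 5 of 8 of the others. Irf7, Sp100, Irf9 and Cmpk2 were among the 14 without these exact letters in the window, and Usp18, Ifi27l2a, Parp9, Dhx58, Parp14, Rtp4, Oas2 and Zbp1 had no entry in the promoter table. A match in letters is a description of the sequence, not a measured binding site.

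All 37 genes reached 1 FPKM in at least 3 libraries, the filter that left 9543 genes for testing. A gene was called abundant in every library when its lowest value was at least 10 FPKM. That held for 26 of the 37, and the other 11 fell below 10 FPKM in at least 1 library. Next to the limit, the lowest values of Dtx3l and Oas1a inside it were 10.1 and 10.2 FPKM, and that of Trim30a outside it was 7.48 FPKM.

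**Figure D1:**
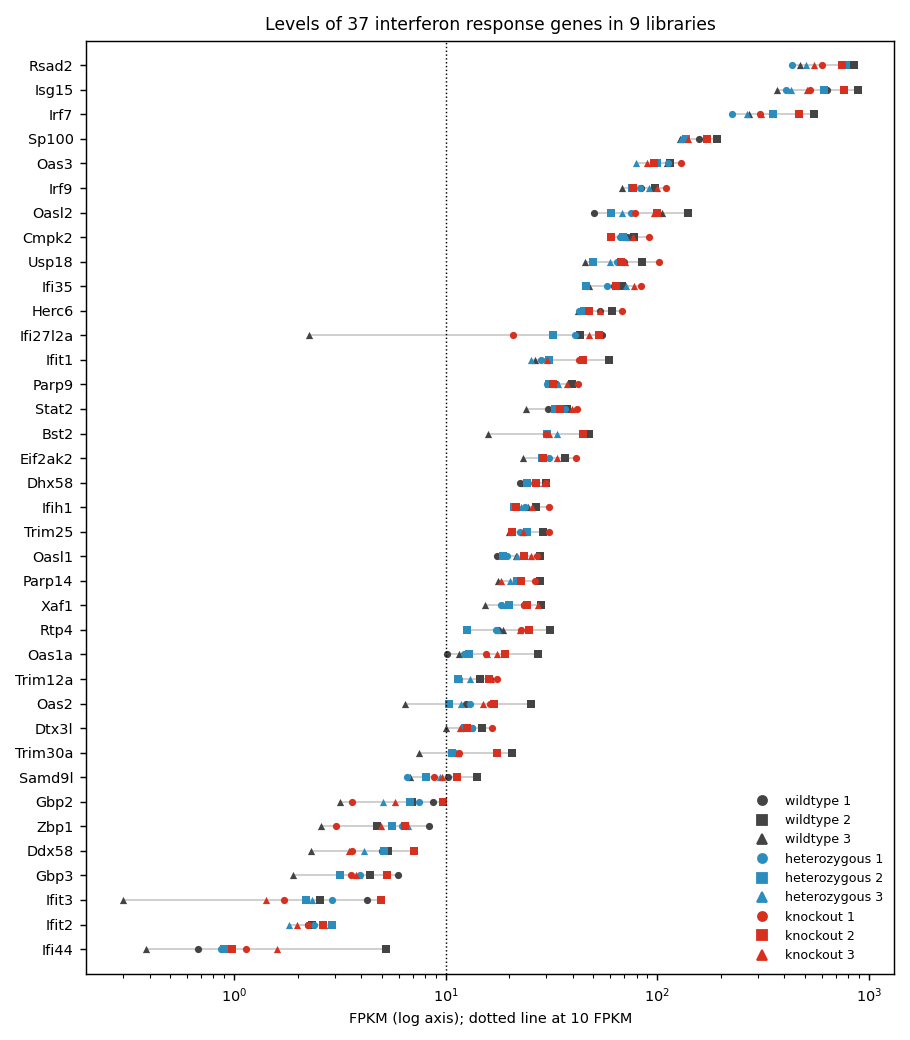
Level of each of the 37 genes in the 9 libraries, in FPKM on a log axis, with genes ordered by mean; colour gives the genotype and the marker shape the replicate number, and the dotted line stands at 10 FPKM. Rsad2, Isg15 and Irf7 lie above 200 FPKM in every library, and Ifi27l2a reaches from 2.26 to 54.7 FPKM.

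The highest of all was Rsad2, which encodes viperin, an enzyme that makes a nucleotide terminating viral RNA synthesis. It lay at 832, 851 and 473 FPKM in wildtype 1, 2 and 3, at 435, 782 and 503 FPKM in the heterozygous libraries and at 603, 748 and 552 FPKM in the knockout libraries. That placed its mean at rank 71 of all genes. Isg15, the ubiquitin-like modifier, followed at 637, 887 and 370 FPKM in wildtype, 408, 612 and 429 FPKM in heterozygous and 530, 762 and 510 FPKM in knockout libraries. Its rank was 89. The genotype groups overlapped for both genes, and the 4 libraries with fewer reads (wildtype 1 and 2, heterozygous 2, knockout 2) were the highest for each.

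Among the signal mediators, Irf7, the transcription factor that amplifies interferon production, had the highest level. Its values were 348, 550 and 271 FPKM in wildtype, 226, 352 and 265 FPKM in heterozygous and 305, 466 and 311 FPKM in knockout libraries. Irf9, the DNA-binding part of the Stat complex, ranged from 68.2 to 110 FPKM with a median of 84.2 FPKM. Usp18, which removes Isg15 from proteins and dampens receptor signalling, ranged from 45.8 to 102 FPKM, and Stat2 from 24.0 to 41.8 FPKM. All 4 mediators were abundant in every library. The span of Irf9 overlaps that of Rnf31 on the same strand by 123 bases, so reads there could have been counted to either gene.

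The antiviral effectors spanned the widest range of levels. Oas3, one of the enzymes that make the oligoadenylates activating RNase L, held between 79.2 and 130 FPKM, a ratio of 1.64 between the highest and lowest library. Cmpk2, a mitochondrial nucleotide kinase whose gene lies beside Rsad2 on chromosome 12, held between 60.8 and 92.0 FPKM, a ratio of 1.51. The neighbours Cmpk2 and Rsad2 differed in level and in their highest libraries, knockout 1 and wildtype 2. Oasl2 ranged from 50.5 to 140 FPKM and Ifit1, which binds viral RNA lacking a methylated cap, from 25.3 to 59.0 FPKM. Both peaked in wildtype 2. Eif2ak2, the kinase PKR that stops translation on double-stranded RNA, ranged from 23.2 to 41.4 FPKM and Oasl1 from 17.5 to 28.1 FPKM. Oas1a lay between 10.2 and 27.3 FPKM and Oas2 between 6.41 and 25.3 FPKM.

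Ifit2 and Ifit3 stood apart from Ifit1, their neighbour on chromosome 19. Ifit2 held between 1.82 and 2.92 FPKM. Ifit3 was at 4.27, 2.55 and 0.299 FPKM in wildtype, 2.91, 2.20 and 2.33 FPKM in heterozygous and 1.73, 4.93 and 1.42 FPKM in knockout libraries, and its lowest value rests on 8 reads. Reads of Ifit3, Oas1a, Trim30a and Trim12a can be shared with near-identical copies in the mouse genome, so their levels are uncertain.

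The sensors of viral RNA divided by level. Dhx58 (LGP2) and Ifih1 (MDA5), cytoplasmic helicases, lay between 22.4 and 29.8 FPKM and between 21.1 and 30.7 FPKM. Ddx58, the gene of the helicase RIG-I, reached at most 7.13 FPKM and was lowest in wildtype 3 at 2.31 FPKM. Zbp1, a sensor of left-handed nucleic acid, reached at most 8.31 FPKM and was also lowest in wildtype 3, at 2.59 FPKM. The guanylate-binding GTPases Gbp2 and Gbp3 had medians of 6.81 and 3.92 FPKM.

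In the ubiquitin, Isg15 and ADP-ribose group, 7 of 8 genes were abundant in every library. Herc6, the ligase that attaches Isg15 in mice, ranged from 42.4 to 68.2 FPKM. Its span, introns included, overlaps that of the predicted gene Gm45193 on the same strand by 45031 bases. Parp9 and Dtx3l, which encode partners in 1 complex, ranged from 30.3 to 42.2 and from 10.1 to 16.5 FPKM. Their genes overlap by 682 bases on opposite strands, where reads cannot be told apart without strand information. Parp14 lay between 17.7 and 27.9 FPKM, Trim25, a ligase that activates RIG-I, at a median of 23.3 FPKM, and Trim12a between 11.5 and 17.5 FPKM.

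Of the remaining genes, Sp100, a component of PML nuclear bodies, was the most abundant at 158, 192 and 128 FPKM in wildtype, 135, 137 and 130 FPKM in heterozygous and 170, 173 and 140 FPKM in knockout libraries. Ifi35 ranged from 46.0 to 83.5 FPKM, Xaf1 from 15.3 to 28.2 FPKM and Rtp4 from 12.7 to 31.3 FPKM. The span of Rtp4 overlaps that of Gm45338 on the same strand by 39791 bases, and reads shared with it cannot be told apart. Bst2, the gene of tetherin, which holds budding virions at the cell surface, was lowest in wildtype 3 at 15.9 FPKM and at 29.7 to 47.6 FPKM elsewhere. Ifi27l2a was at 54.7, 43.4 and 2.26 FPKM in wildtype, 41.1, 32.3 and 52.5 FPKM in heterozygous and 20.8, 53.0 and 47.5 FPKM in knockout libraries. The value in wildtype 3 was 4.98% of the median of the others. Ifi44 was at 5.23 FPKM in wildtype 2 and at 0.386 to 1.59 FPKM in the other libraries.

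The libraries did not share the peaks evenly. Wildtype 2 was the highest for 16 of the 37 genes, or 43.2%, whereas it was the highest for 4.33% of all tested genes. Knockout 1 was the highest for 14, or 37.8%, against 8.69% of all tested genes. Those 2 libraries held every peak of the 26 abundant genes, with 12 in wildtype 2 and 14 in knockout 1. Wildtype 3 was the highest for none and the lowest for 21 genes, or 56.8%, while it was the lowest for 24.7% of all tested genes and the highest for 31.1%. These are descriptions of single libraries, with no test.

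**Figure D2:**
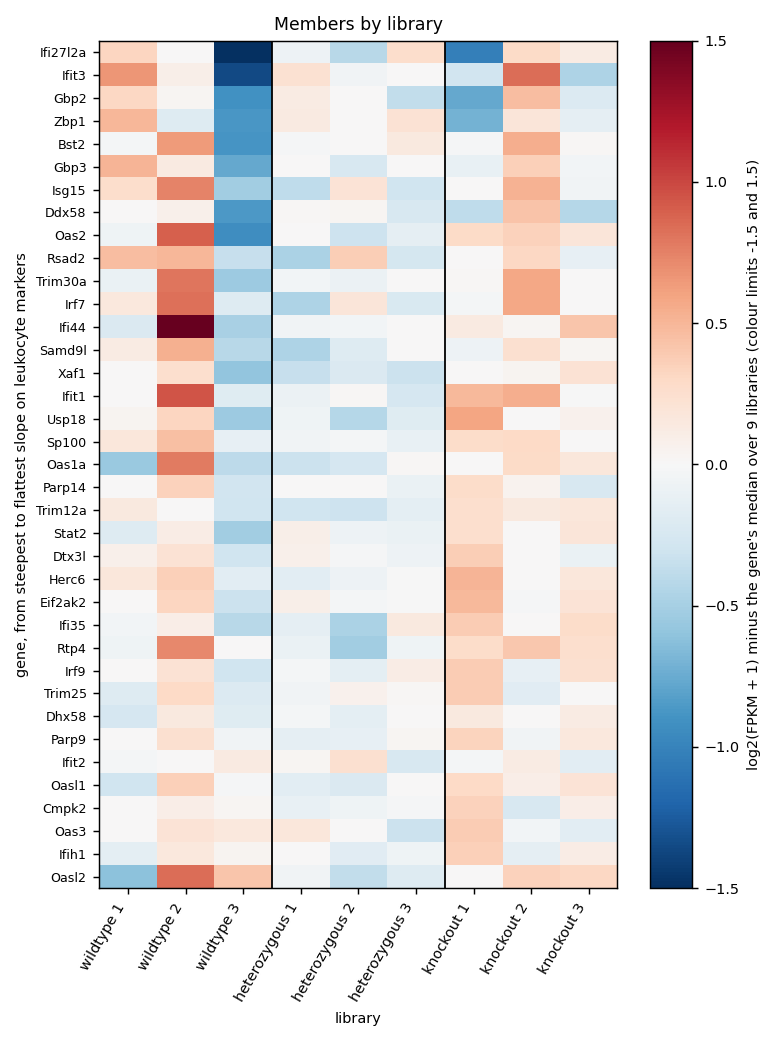
Each gene's log2(FPKM + 1) minus its median over the 9 libraries, with genes ordered from the steepest to the flattest slope on leukocyte markers and the colour scale ending at -1.5 and 1.5. The wildtype 3 column is blue for most upper rows, and wildtype 2 and knockout 1 are red over most of the abundant genes.

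Which response genes moved with leukocyte markers was asked with a slope. The leukocyte index was the mean log2(FPKM + 1) of 72 markers of B, T and NK cells, monocytes and macrophages, neutrophils and dendritic cells, and each gene was fitted on it beside a mean per genotype. Index values were 4.53, 4.05 and 1.88 in wildtype, 3.54, 3.92 and 3.78 in heterozygous and 3.26, 4.40 and 3.64 in knockout libraries. A slope of 1 means that a gene's FPKM + 1 doubles for each rise of the index by 1. The markers' own slopes average 1 by construction, with a median of 1.01. In sorted bulk RNA, fewer cells of a type and less RNA per cell cannot be told apart.

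Of the 37 response genes, 11 had a positive slope at an adjusted p below 0.05 (limma, Benjamini-Hochberg adjustment over 9543 genes) and none a negative one, where 17.9% of all tested genes outside the index were called positive and 14.3% negative. The members' median slope was 0.14, against -0.05 for genes outside the index. The calls fell on 4 of the 26 abundant genes and 7 of the 11 others. This split is no comparison, because the lowest library sets the class: Ifi27l2a, Oas2 and Trim30a fell below 10 FPKM in wildtype 3 alone, the library lowest on the index. Without wildtype 3, limma called none of the 37, and it called 2.12% of genes outside the index positive. At an unadjusted limma p below 0.05 were 3170 of 9520 genes, in either direction, and 14 of the 37, not far from that share. Most of those 14 had negative slopes, from -0.51 to -0.30: Ifih1, Eif2ak2, Irf9, Usp18, Cmpk2, Trim25, Herc6, Stat2 and Parp9. The rest had positive slopes, from 0.58 to 0.93: Gbp2, Zbp1, Ifit3, Ddx58 and Ifi27l2a. Of the 11 genes, 10 had a slope above 0 without wildtype 3, 8 within the 4 libraries of lowest depth, and 6 without both wildtype 3 and knockout 2. These counts are no independent support, because the 11 were called for a positive slope with the same libraries. With the replicate number as a block, 5 response genes were called: Gbp3, Ifi27l2a, Ifit3 and Zbp1 with positive slopes, and Oas3 with a slope of -0.23 (limma adjusted p = 0.0491). In that fit 14.4% of genes outside the index were called positive.

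**Figure D3:**
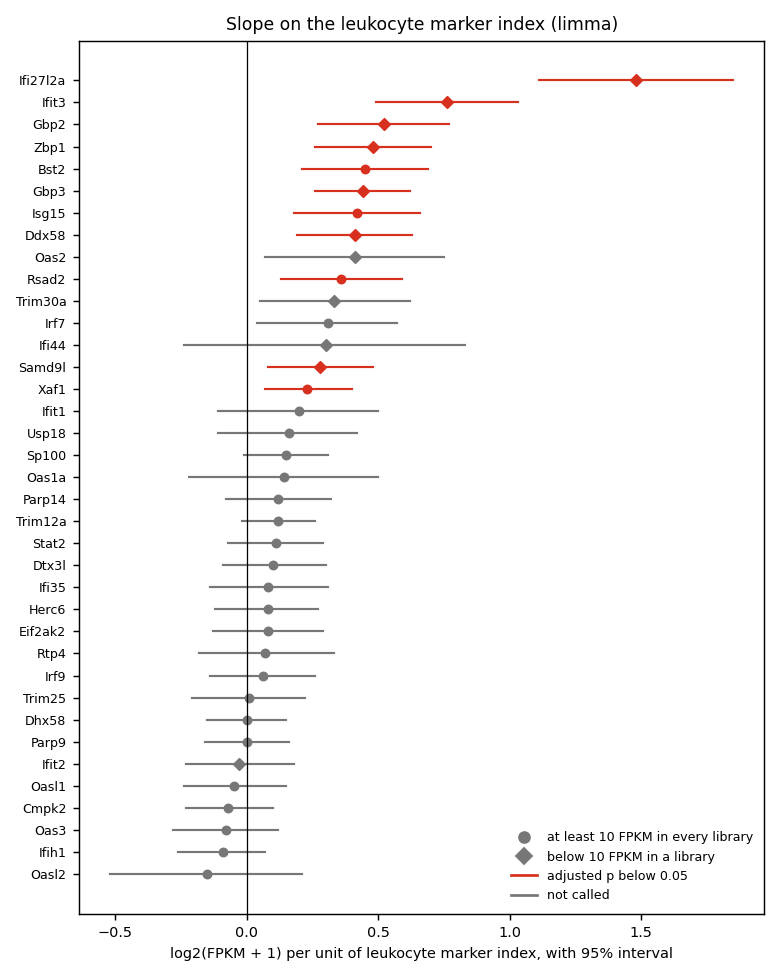
Slope of each gene's log2(FPKM + 1) on the leukocyte index with its 95% interval from limma; circles are genes of at least 10 FPKM in every library, diamonds the others, and red marks an adjusted p below 0.05. Ifi27l2a lies at 1.48, and most circles lie between -0.15 and 0.31.

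Ifi27l2a had a slope of 1.48 ± 0.17 (SE, limma, adjusted p = 0.000205), which fell to 0.82 ± 0.33 and was not called without wildtype 3 (adjusted p = 0.131). Ifit3 had a slope of 0.76 ± 0.12 (limma adjusted p = 0.00143). At its low level this value depends on the pseudocount: it was 1.27 with a pseudocount of 0.1 and 1.38 with voom on recovered reads, where Ifi27l2a was at 1.64 and 1.29. Both showed the gap between wildtype 3 and the other libraries in their levels. Gbp2, Zbp1, Gbp3 and Ddx58 had slopes of 0.52, 0.48, 0.44 and 0.41, with limma adjusted p from 0.00306 to 0.011. Samd9l, a growth-restraining gene that ranged from 6.58 to 14.1 FPKM, had a slope of 0.28 (limma adjusted p = 0.0385). Oas2, Trim30a and Ifi44 had larger slopes of 0.41, 0.33 and 0.30. They were not called (limma adjusted p = 0.0652, 0.0727 and 0.366). Without wildtype 3 their slopes were -0.28, 0.16 and -0.64. Ifit2 was at -0.03 and was not called either.

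Among the abundant genes, Bst2 had a slope of 0.45 ± 0.11, Isg15 of 0.42 ± 0.11, Rsad2 of 0.36 ± 0.10 and Xaf1 of 0.23 ± 0.08, with limma adjusted p from 0.0117 to 0.0388. With the replicate block none of these 4 was called, at limma adjusted p of 0.0676, 0.0634, 0.153 and 0.137. Without wildtype 3 none was called either, and the slope of Xaf1 was -0.05. The other 22 abundant genes were not called. Of them, Irf7 lay highest at 0.31 ± 0.12 (adjusted p = 0.0727), followed by Ifit1 at 0.20, Usp18 at 0.16, Sp100 at 0.15 and Oas1a at 0.14. Parp14 and Trim12a had slopes of 0.12, Stat2 of 0.11 and Dtx3l of 0.10. Ifi35, Herc6 and Eif2ak2 were at 0.08, Rtp4 at 0.07, Irf9 at 0.06 and Trim25 at 0.01. Dhx58 was at 0.00, Parp9 at -0.00 and Oasl1 at -0.05. Cmpk2, Oas3, Ifih1 and Oasl2 were at -0.07, -0.08, -0.09 and -0.15.

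**Figure D4:**
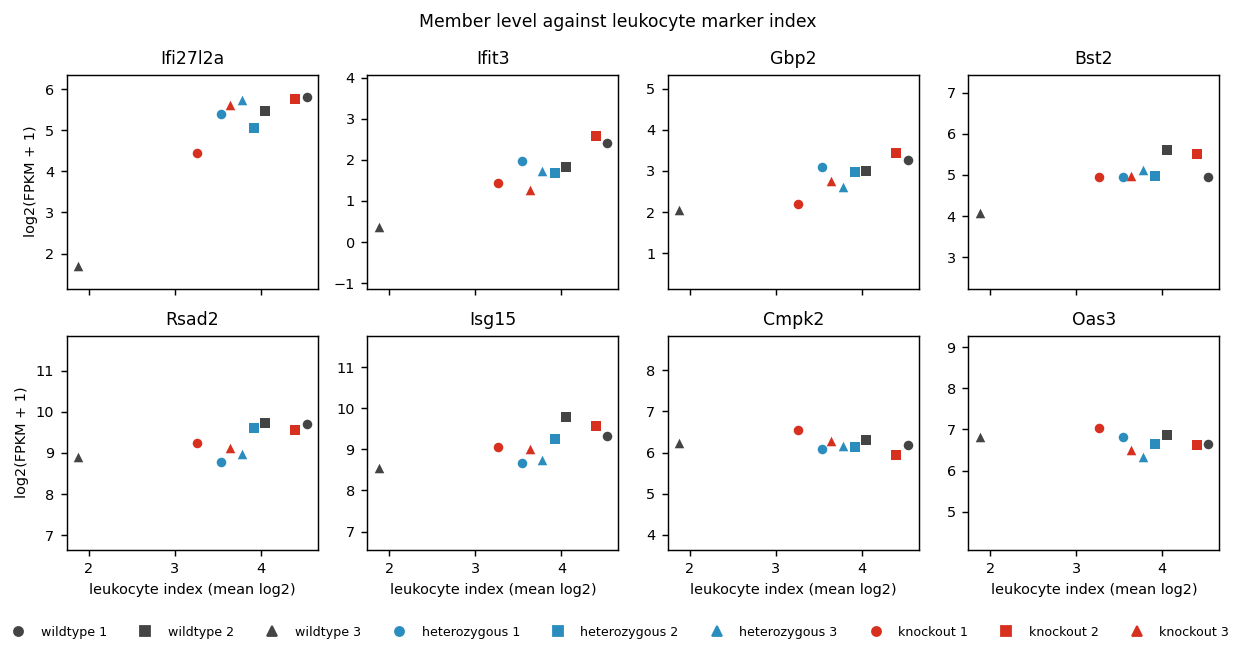
Level of 8 genes as log2(FPKM + 1) against the leukocyte index in the 9 libraries, with the same height of axis in each panel. Wildtype 3 lies alone at an index of 1.88; Ifi27l2a falls to its lowest there, while Cmpk2 and Oas3 do not.

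Sequencing depth moved with the same libraries. The leukocyte index ran from 3.92 to 4.53 over the 4 shallower libraries, and from 1.88 to 3.78 over the 5 deeper. Globin genes (Hba-a1, Hba-a2, Hbb-bs and Hbb-bt) held 4.14% to 5.06% of the summed FPKM in the former and 2.52% to 2.86% in the latter. With log2 depth as a further term, the leukocyte slope was called for 6 response genes, Bst2, Gbp3, Ifi27l2a, Ifit3, Zbp1 and Ifi35, all positive, where 13.1% of genes outside the index were called positive. Within the 5 deeper libraries alone it was called for 6 (Bst2, Gbp3, Ifi27l2a, Ifit3, Oas2, Trim30a) against 11.3% of genes, and Rsad2 and Isg15 had slopes of 0.05 and 0.16 there. Within the 4 shallower libraries limma called no response gene, and 0.621% of genes positive. At an unadjusted limma p below 0.05 were 4 of the 36 response genes tested there and 1367 of 9253 genes.

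The 3 most abundant response genes separated by depth. Rsad2 was at 748 to 851 FPKM where depth was lower and at 435 to 603 FPKM where it was higher, Isg15 at 612 to 887 and 370 to 530 FPKM, and Irf7 at 348 to 550 and 226 to 311 FPKM. No other response gene had all shallower above all deeper libraries, a pattern of 5.66% of all tested genes. On log2 depth beside the genotype, Rsad2 had a slope of -0.84 ± 0.16, Isg15 of -0.82 ± 0.24 and Irf7 of -0.71 ± 0.23, with limma adjusted p of 0.119, 0.306 and 0.306. No response gene was called on depth, and 0.44% of all tested genes were. At an unadjusted limma p below 0.05 were 4 of the 37 and 1522 of the 9543 genes. Without heterozygous 2, the shallowest library, 8 response genes and 2817 of all genes were called. The part of depth, of leukocyte markers and of globin share in these 3 levels was not tested.

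Whether loss of Dhh altered the response genes was asked in 3 comparisons that share their groups. None of the 37 genes was called in any of them. Limma called 0% of the 9543 genes between knockout and wildtype (43 at an unadjusted p below 0.05, none of them a response gene), 0% between heterozygous and wildtype (113, none a response gene) and 0% between knockout and heterozygous (56, of which 2 response genes). With voom weights on recovered reads, the calls were also 0. The counts at an unadjusted p moved with single libraries. Between knockout and wildtype, 7 response genes and 86 of all genes were under 0.05 without wildtype 2. The counts were 1 and 252 without knockout 2, 0 and 227 without wildtype 3, and 1 and 131 without wildtype 1. Between heterozygous and wildtype they were 9 response genes without wildtype 3, with 292 of all genes, and 2 without wildtype 1, with 344. Between knockout and heterozygous they were 4 response genes and 499 of all genes without knockout 2. Leaving out both wildtype 3 and knockout 2 moved them most. Then 2073 of all genes and 4 response genes were under 0.05 between knockout and wildtype. The counts were 704 and 11 between heterozygous and wildtype, and 1545 and 11 between knockout and heterozygous. No adjusted p passed in any of these. The 95% interval of the difference lay within a 2-fold change in either direction for 32, 30 and 27 of the 37 genes, and reached past it for the others.

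In the knockout against wildtype comparison the median log2 difference of the response genes was 0.11, against 0.01 over all genes. Above 0 were 29 of 37, against 52.7% of all genes. The response genes shared their peak libraries, so here and below they are not separate observations. Rsad2 was at 719 ± 213 FPKM in wildtype (SD, n = 3) and 634 ± 101 FPKM in knockout libraries (n = 3), a log2 difference of -0.14 with an interval of -0.78 to 0.49. Isg15 differed by -0.01 (-0.72 to 0.70), Irf7 by -0.08 (-0.72 to 0.56) and Sp100 by 0.03 (-0.33 to 0.39). The lowest unadjusted limma p were those of Stat2, with a difference of 0.34 ± 0.17 (SE), Ifi35, with 0.33 ± 0.20, and Trim12a, with 0.23 ± 0.14. The lowest adjusted p of a response gene was 0.9997. No response gene had non-overlapping groups, against 2.48% of all tested genes.

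In heterozygous libraries the median difference from wildtype was -0.11, against -0.00 over all genes. Of the 37, 26 were below 0 and 11 above, where 49.4% of all genes were above 0. Rsad2 was at 573 ± 184 FPKM (SD, n = 3), a log2 difference of -0.32 (-0.96 to 0.31). Isg15 differed by -0.32 (-1.03 to 0.39), Irf7 by -0.43 (-1.07 to 0.21), Sp100 by -0.23 (-0.59 to 0.13), Rtp4 by -0.44 (-0.93 to 0.05) and Trim12a by -0.21 (-0.52 to 0.11). Cmpk2 was the only response gene whose groups did not overlap, at 66.8 to 71.1 FPKM against 72.1 to 77.6 FPKM. Among all tested genes 4.36% had groups without overlap in either direction. Ifi27l2a had the widest interval, -1.03 to 3.17 around 1.07, with the wildtype group holding both 54.7 and 2.26 FPKM.

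Between knockout and heterozygous libraries the median difference was 0.21, against 0.00 over all genes. Above 0 were 31 of 37, against 51.1% of all genes. For 11 response genes every knockout library lay above every heterozygous one (Sp100, Oasl2, Usp18, Herc6, Oasl1, Xaf1, Rtp4, Trim12a, Oas2, Trim30a and Ifi44), a pattern of 2.61% of all tested genes. Response genes shared their peak libraries, so the 11 are not separate observations. Some gaps were narrow. The lowest knockout and highest heterozygous values were 47.5 and 47.2 FPKM for Herc6 and 0.982 and 0.946 FPKM for Ifi44. For Trim30a both rounded to 11.4 FPKM. Trim12a was at 17.5, 16.1 and 16.4 FPKM in knockout and 11.6, 11.5 and 13.0 FPKM in heterozygous libraries, a log2 difference of 0.44 (0.12 to 0.76). Its unadjusted limma p was 0.0116 and its adjusted p 1. Rtp4 was at 22.8, 24.9 and 22.4 against 17.3, 12.7 and 17.8 FPKM, a difference of 0.54 (0.05 to 1.03) with an unadjusted limma p of 0.0355 and an adjusted p of 1. Xaf1 differed by 0.38 (-0.07 to 0.83), Irf7 by 0.36 (-0.28 to 1.00), Isg15 by 0.31 (-0.40 to 1.02), Sp100 by 0.26 (-0.10 to 0.62) and Rsad2 by 0.18 (-0.45 to 0.81). The wildtype values of Trim12a and Rtp4 overlapped both groups, at 11.6 to 16.2 and 17.7 to 31.3 FPKM. Leukocyte markers stood at an index of 3.26 to 4.40 in knockout and 3.54 to 3.92 in heterozygous libraries, and their part in these differences was not tested.

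**Figure D5:**
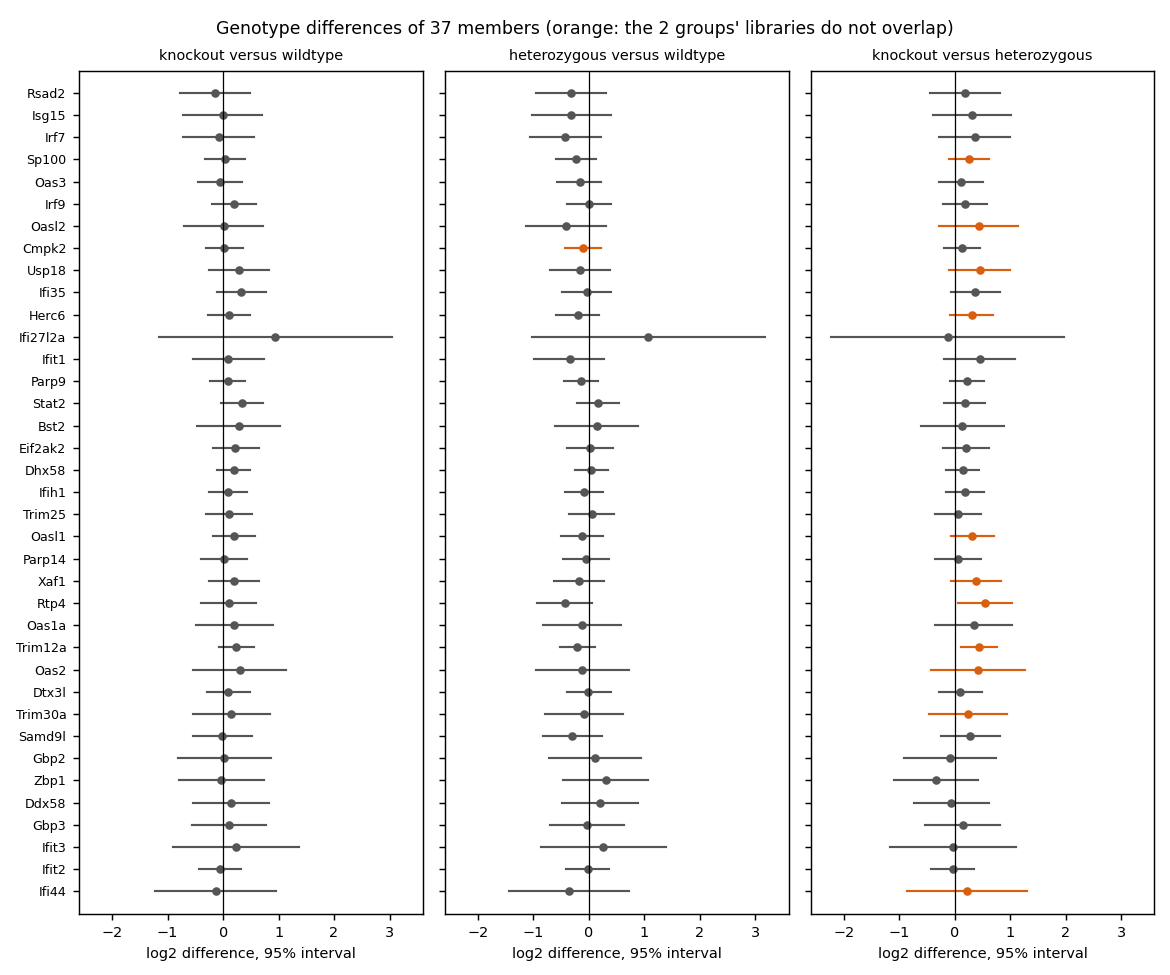
Log2 difference of each of the 37 genes in the 3 genotype comparisons with its 95% interval from limma; orange marks genes whose libraries do not overlap between the groups compared. The knockout against heterozygous panel holds 11 orange genes and the knockout against wildtype panel none, and no gene passed the adjusted test in any panel.

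The rest of the interferon pathway was read from 136 further genes in 8 lists, of which 129 had a row and 106 were tested. On the leukocyte index 47 were called positive and 1 negative, beside the 17.9% and 14.3% of all tested genes outside the index, and the former share was 2.12% without wildtype 3. The counts and slopes of these lists are from all 9 libraries. They are not given without wildtype 3, so the 47 cannot be set against the 2.12%. None was called between genotypes by limma (none at an unadjusted p below 0.05). Of 17 ligand genes with a row, 13 were listed at 0 in all libraries, Ifnb1 among them. Ifna2, Ifnk and Ifnz reached at most 0.201, 0.167 and 0.0448 FPKM. Ifng, the type II interferon, reached 6.87 FPKM and had a slope of 0.87.

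The receptor relay was present in every library, with Jak1 at a median of 91.3 FPKM and Jak2 at 45.3 to 68.1 FPKM. Of its 9 genes 5 were called positive on the index. Among the sensors and adaptors 8 of 13 were called, including Samhd1, an enzyme that degrades nucleotides, at a slope of 0.34. Adar, which edits double-stranded RNA, and the kinase Tbk1 were at 37.5 to 54.5 and 35.7 to 51.5 FPKM, with slopes of 0.01 and -0.05. Of 6 interferon regulatory factors 4 were called, led by Irf8 at a slope of 1.04, while Irf2 and Irf3 were at -0.04 and 0.05. Irf8 stood at 2.06 FPKM in wildtype 3 and at 7.49 to 22.1 FPKM elsewhere. Among 7 negative regulators 3 were called. Ptpn6, a phosphatase of blood cells, had a slope of 0.83, and Usp15 and Ptpn11 were at 0.17 and -0.13.

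Conjugation of Isg15 needs Uba7 and Ube2l6, the activating and conjugating enzymes. Ube2l6 was at 826 to 2111 FPKM and Uba7 at 285 to 401 FPKM, and neither was called on the index. Ube2l6 separated by depth like Rsad2, at 1947 to 2111 FPKM in the shallower and 826 to 1187 FPKM in the deeper libraries. Of 45 further interferon-induced genes 18 were called positive. The most abundant were Isg20, an exonuclease, at 1404 to 1599 FPKM in shallower and 652 to 916 FPKM in deeper libraries, Lgals9 at 109 to 159 FPKM and Ifitm3 at 87.4 to 138 FPKM, none of them called. Of 23 genes induced by interferon gamma or used in antigen presentation, 8 were called positive. Tap1, a peptide transporter subunit, was the 1 negative call at a slope of -0.29 (limma adjusted p = 0.0403). It stood at 45.3 FPKM in wildtype 3 and at 21.1 to 33 FPKM elsewhere. B2m, H2-D1 and H2-K1, components of class I antigen presentation, were at medians of 974, 321 and 160 FPKM and were not called.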

How the data were processed

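The authors deposited length-scaled values per gene and library, read here as FPKM; the column unit is inferred from the values. TopHat, Picard, DESeq2 and mm10 are named in the submitters' processing notes, without roles or versions. All 14147 genes above 0 in at least 2 libraries gave whole reads within 0.05 reads after division by a constant per gene and a factor per library.

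Values were tested as log2(FPKM + 1), which understates changes of low genes, with limma 3.58.1 in R 4.3.3 for genes of at least 1 FPKM in 3 libraries, and adjusted by Benjamini-Hochberg over 9543 genes at 0.05. All 9 libraries entered 1 fit with a mean per genotype. The leukocyte slope added the index of 72 markers. The depth slope, within-depth fits and omissions of a pair of libraries were added after values were seen. The scripts were tested on simulated data.

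Members and lists were chosen with earlier results of these data known. Every member's level is given. Slopes are given for members abundant in every library and for the 6 others of largest slope. Those of Samd9l, Oas2, Trim30a, Ifi44 and Ifit2 were added after their values were seen. Genotype differences are given for the 4 highest members and the 3 of lowest p per comparison. Ifi27l2a and Cmpk2 are further named there after their values were seen. Of the other pathway genes, the 3 highest of each list and called genes could be named. One of these is not reported here.

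Same-numbered libraries correlated in their deviations from the group means at 0.20, 0.18 and 0.41 between knockout and heterozygous, which meets the bar for pairs; the differences printed come from the fit without pairs, and the fit with the replicate block is an alternative that called 0 genes there too. They correlated at -0.57, 0.51 and 0.33 between knockout and wildtype, and at 0.13, 0.18 and 0.00 between heterozygous and wildtype.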

Additional observations from a re-analysis of the deposited data

How the results depend on the processing

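The counts of genes and of response genes called between genotypes were 0 in each of the 3 comparisons under all alternatives run, the replicate block included; the block changed the counts called on leukocyte markers and on depth, and no other call. Read depth (14231427 reads at most in a library, and 7052111 in heterozygous 2) and 3 libraries a group limit the precision.

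The leukocyte slope was called for 3119 genes and 11 response genes. With the replicate block it was called for 2046 and 5 (Gbp3, Ifi27l2a, Ifit3, Zbp1 and, with a negative slope, Oas3), with depth as a further term for 1865 and 6, within the 5 deeper libraries for 1515 and 6, and within the 4 shallower for 60 and 0. Without both wildtype 3 and knockout 2 it was called for 0 and 0. A filter of 5 FPKM, which tests fewer genes, gave 2065 genes. With Cd74 alone or the B cell list alone as the index, 5 and 7 response genes were called. Leaving out 1 library at a time gave 221 to 2975 genes and 0 to 14 response genes, lowest without wildtype 3; without wildtype 1 the genes were 1621. The depth slope was called for 42 genes, 0 with the replicate block and 13 without both wildtype 2 and knockout 1. With 1 library left out these were 26 to 2817 genes (26 without heterozygous 1 or 3) and 0 to 8 response genes, highest without heterozygous 2. The cause was not tested.

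The log2 difference between knockout and wildtype changed sign, without a call on either side, in the following genes. Leukocyte marker index as a further term: Sp100 -0.01. Log2 depth as a further term: Isg15 0.11, Irf7 0.03. Quantile normalization: Isg15 0.12. Without wildtype replicate 2 and knockout replicate 1 together: Rsad2 0.03, Isg15 0.36, Irf7 0.31. Without wildtype replicate 3 and knockout replicate 2 together: Sp100 -0.18. With 1 library left out, from lowest to highest: Rsad2 -0.42 to 0.00, Isg15 -0.35 to 0.28, Irf7 -0.31 to 0.20, Sp100 -0.12 to 0.17.

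The leukocyte slope changed sign in the following genes, a list that does not cover Oas2, Trim30a, Ifi44 and Ifit2. B cell list alone as the index: Dhx58 -0.03, Trim25 -0.00, Rtp4 -0.01, Oas1a -0.00. Cd74 alone as the index: Dhx58 -0.01, Trim25 -0.03. Log2 depth as a further term: Parp9 0.06, Oasl1 0.02. Monocyte and macrophage list alone as the index: Dhx58 -0.00, Trim25 -0.02. Pseudocount of 0.1: Parp9 0.00. Quantile normalization: Oas3 0.01, Cmpk2 0.03, Parp9 0.08, Oasl1 0.01. Replicate block: Ifit1 -0.01, Parp9 0.01, Dhx58 -0.00, Trim25 -0.06, Parp14 -0.00. Voom on recovered reads: Parp9 0.00. Within the 4 shallower libraries, no genotype term: Rsad2 -0.02, Isg15 -0.09, Irf7 -0.19, Irf9 -0.06, Ifit1 -0.32, Stat2 -0.22, Bst2 -0.11, Eif2ak2 -0.21, Dhx58 -0.23, Trim25 -0.64, Parp14 -0.21, Oas1a -0.73, Dtx3l -0.03. Within the 5 deeper libraries, no genotype term: Irf7 -0.01, Parp9 0.05, Oasl1 0.03. Without wildtype replicate 2 and knockout replicate 1 together: Dhx58 -0.04, Trim25 -0.00, Rtp4 -0.03, Oas1a -0.04. Without wildtype replicate 3 and knockout replicate 2 together: Isg15 -0.07, Irf7 -0.12, Sp100 -0.46, Irf9 -0.36, Usp18 -0.88, Ifi35 -0.38, Herc6 -0.35, Ifit1 -1.16, Stat2 -0.46, Bst2 -0.55, Eif2ak2 -0.58, Dhx58 -0.45, Trim25 -0.63, Parp14 -0.70, Xaf1 -0.00, Rtp4 -1.01, Oas1a -1.0, Dtx3l -0.53, Ddx58 -0.12, Samd9l -0.07. With 1 library left out, from lowest to highest: Sp100 -0.02 to 0.22, Irf9 -0.43 to 0.14, Oasl2 -0.30 to 0.18, Usp18 -0.51 to 0.23, Ifi35 -0.35 to 0.15, Herc6 -0.35 to 0.14, Ifit1 -0.13 to 0.43, Parp9 -0.31 to 0.05, Stat2 -0.30 to 0.16, Eif2ak2 -0.44 to 0.15, Dhx58 -0.23 to 0.08, Trim25 -0.46 to 0.09, Oasl1 -0.32 to 0.09, Parp14 -0.19 to 0.19, Xaf1 -0.05 to 0.30, Rtp4 -0.21 to 0.25, Oas1a -0.15 to 0.47, Trim12a -0.02 to 0.15, Dtx3l -0.26 to 0.16.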
